A study of Mus musculus with 30 samples.

Results

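MDB is a mixture of 3 drugs, metoprolol (MTP), doxazosin (DOX) and bromocriptine (BRM), and its effect on the light-damaged retina was measured in 6 of the 30 libraries of the series, chosen by their labels. The MDB group held 3 libraries from Abca4-/-Rdh8-/- mice that were injected intraperitoneally with the mixture 30 min before 30 min of white light at 10000 lux. It is set against 3 libraries from mice of the same genotype that had light after DMSO. Light after BMT, a mixture with tamsulosin (TAM) in the place of doxazosin, and no light after DMSO gave 3 libraries each in the same experiment. All mice had a C57BL/6J background, were of both sexes and 4 to 6 weeks old, and were kept in dim cyclic light. Neural retina was collected 24 h after light. No doses are stated in the sources used here, and no library with intact Abca4 and Rdh8 was used. The labels name separate replicates without saying whether each was 1 animal or a pool, so p-values measure the spread between these libraries.

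Metoprolol blocks beta-1 adrenergic receptors, doxazosin blocks alpha-1 adrenergic receptors, and bromocriptine activates dopamine D2-like receptors. These are G protein-coupled receptors that act through cyclic AMP or phospholipase C. Abca4, a flippase of photoreceptor discs, and Rdh8, a retinol dehydrogenase, clear all-trans-retinal after light, and mice without both are prone to photoreceptor loss in bright light. Müller glia answer retinal injury with gliosis, marked by Gfap, and with cytokine signalling through gp130, JAK kinases and STAT factors. Interferon-stimulated genes and the genes of antigen presentation share STAT and IRF factors with that response.

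Gene counts summed to 18.5 to 25.8 M over the 12 libraries of the experiment, and levels are given as CPM, counts per 1000000 counts of a library. Reads were still assigned to both targeted loci. Abca4 had 593, 668 and 696 CPM with MDB, against 390.1, 399 and 428 CPM after light alone, and Rdh8 had 24.8, 30.3 and 32.3 CPM with MDB, against 31.6, 29.8 and 32.9 CPM after light alone. Without a wild-type library these counts do not check the genotype. The tissue label was met by abundant rod transcripts, with Pdc, phosducin, which binds the beta and gamma subunits of transducin, at 2982, 3287 and 3089 CPM with MDB, against 1413, 1569 and 1767 CPM after light alone. Lens transcripts set the groups apart. To score lens-fibre RNA, CPM were averaged on the log2 scale over 6 lens-fibre genes, Mip, Lim2, Bfsp1, Bfsp2 and Gja3 among them, and this lens-fibre score was 6.88, 6.41 and 6.56 with MDB, 2.03, 6.40 and -1.65 with BMT, 0.197, 1.29 and 5.01 after light alone and 1.02, 7.58 and 0.905 without light. The summed level of 26 lens-fibre genes was 27013 to 37127 CPM with MDB, 165 to 27426 CPM with BMT, 623 to 12716 CPM after light alone and 1265 to 51911 CPM without light. Every MDB library was above every light library, with an exact permutation p of 0.1, the smallest that 3 libraries against 3 allow. The score was chosen with earlier results of these data known, so this p is a description and no test. A score of 4 or more, called lens-high here, was reached by all 3 MDB libraries and by 1 library of each other group. For that reason most counts are also given from a fit with the score as a covariate.

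Other marker sums also differed between MDB and light alone. Lens-epithelium markers summed to 255 to 355 CPM with MDB and 136 to 172 CPM after light alone, and fibroblast and sclera markers to 121 to 156 CPM with MDB and 29.9 to 53.8 CPM after light alone. Ciliary body and iris markers summed to 369 to 389 CPM with MDB and 275 to 302 CPM after light alone. In these lists the lens-high BMT and no-light libraries stood near the MDB libraries. Lens-epithelium markers summed to 278 CPM in that BMT library and 330 CPM in that no-light library. The sums were 142 and 140 CPM for fibroblast and sclera, and 368 and 365 CPM for ciliary body and iris. Endothelial markers ran the other way, with 98.3 to 122 CPM with MDB and 197 to 241 CPM after light alone. They summed to 84.7 to 122 CPM with BMT and 105 to 109 CPM without light, so the light group alone was high. Sums of retinal pigment epithelium markers overlapped (516 to 1252 CPM with MDB and 548 to 1519 CPM after light alone), as did those of bipolar, amacrine and ganglion cells. Sums that did not overlap were also found for microglia and macrophage markers, with 81.4 to 96.4 CPM with MDB and 71.0 to 79.3 CPM after light alone, and for horizontal-cell markers, with 262 to 327 CPM with MDB and 222 to 245 CPM after light alone. No marker of any list was at 0 in every library.

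MDB and light alone differed in 1542 of 16007 genes (9.63%), of which 593 (3.7% of all) rose and 949 (5.93%) fell with the mixture. Counts of genes called in the lists below are read against these shares. The falls were also the larger changes, with 361 genes lower and 121 higher by at least 2-fold, and 128 lower and 31 higher by at least 4-fold. With the lens-fibre score as a covariate 729 genes were higher (4.55%) and 972 lower (6.07%), 1701 in all (10.6%). The lens-high libraries alone, 3 with MDB and 1 after light, gave 580 calls in a fit that assumes the lone light library to vary like the other groups. The median log2 fold change of all genes was 0.00. Groups that did not overlap were found for 33.2% of all genes, so the separations printed below are read against that share. Leaving out 1 library gave 919 to 1376 calls, and the lowest counts were 919 without light replicate 1, 982 without MDB replicate 3 and 993 without light replicate 2. In bulk retina, fewer cells of a type and less RNA per cell cannot be told apart.

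Among genes whose mean log2 CPM reached 1 and whose groups did not overlap, the largest fall was that of Prss56 (ENSMUSG00000036480, chromosome 1, 87183313 to 87188405, plus strand; coordinates are those of GRCm38.p3), a serine protease of Müller glia that is needed for normal eye growth. Prss56 had 1.71, 1.54 and 3.59 CPM with MDB, against 207, 185 and 119 CPM after light alone (log2 fold change -6.22 ± 0.53 (SE), adjusted p = 4.62e-05). It stood at 4.63, 1.97 and 1.16 CPM with BMT and 3.60, 1.29 and 4.62 CPM without light, so the light group alone was high. Serpina3n, a protease inhibitor of reactive glia, had 6.28, 13.3 and 14.9 CPM with MDB, against 208, 246 and 420.1 CPM after light alone (log2 fold change -4.67 ± 0.79 (SE), adjusted p = 0.00290). Lad1, an anchoring filament protein of basement membranes, had 0.923, 1.54 and 5.19 CPM with MDB, against 44.2, 42.7 and 48.1 CPM after light alone (log2 fold change -4.14 ± 0.73). MDB replicate 3 was the highest of the mixture libraries for Lad1 and for several genes below, and it was still below every light library. Scube1, a secreted CUB and EGF domain protein, had 1.62, 1.02 and 1.89 CPM with MDB, against 22.3, 17.9 and 21.1 CPM after light alone (log2 fold change -3.75 ± 0.64). Tnnt2, cardiac troponin T, had 0.600, 2.10 and 3.05 CPM with MDB, against 22.0, 18.9 and 21.7 CPM after light alone (log2 fold change -3.45 ± 0.55).

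The other genes among the 12 largest falls were regulators of transcription and signalling, and interferon-inducible genes. Cebpd, a transcription factor of the acute-phase response, had 2.21, 3.69 and 7.27 CPM with MDB, against 47.2, 39.3 and 47.4 CPM after light alone (log2 fold change -3.34 ± 0.46 (SE), adjusted p = 8.71e-04). Atf3, a stress-induced transcription factor, had 3.23, 3.95 and 5.43 CPM with MDB, against 41.1, 46.6 and 36.5 CPM after light alone (log2 fold change -3.30 ± 0.29). Parp14, an ADP-ribosyltransferase, had 2.54, 1.84 and 2.47 CPM with MDB, against 32.0, 23.3 and 14.2 CPM after light alone (log2 fold change -3.34 ± 0.36). Tap1, Socs3, Igtp and Bst2 complete the 12 and are described with their pathways. These genes were chosen for groups that did not overlap, and their largest adjusted p was 0.00374. Their median log2 fold change was -3.55, and -3.77 with the lens-fibre score as a covariate, where all 12 still passed.

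**Figure D1:**
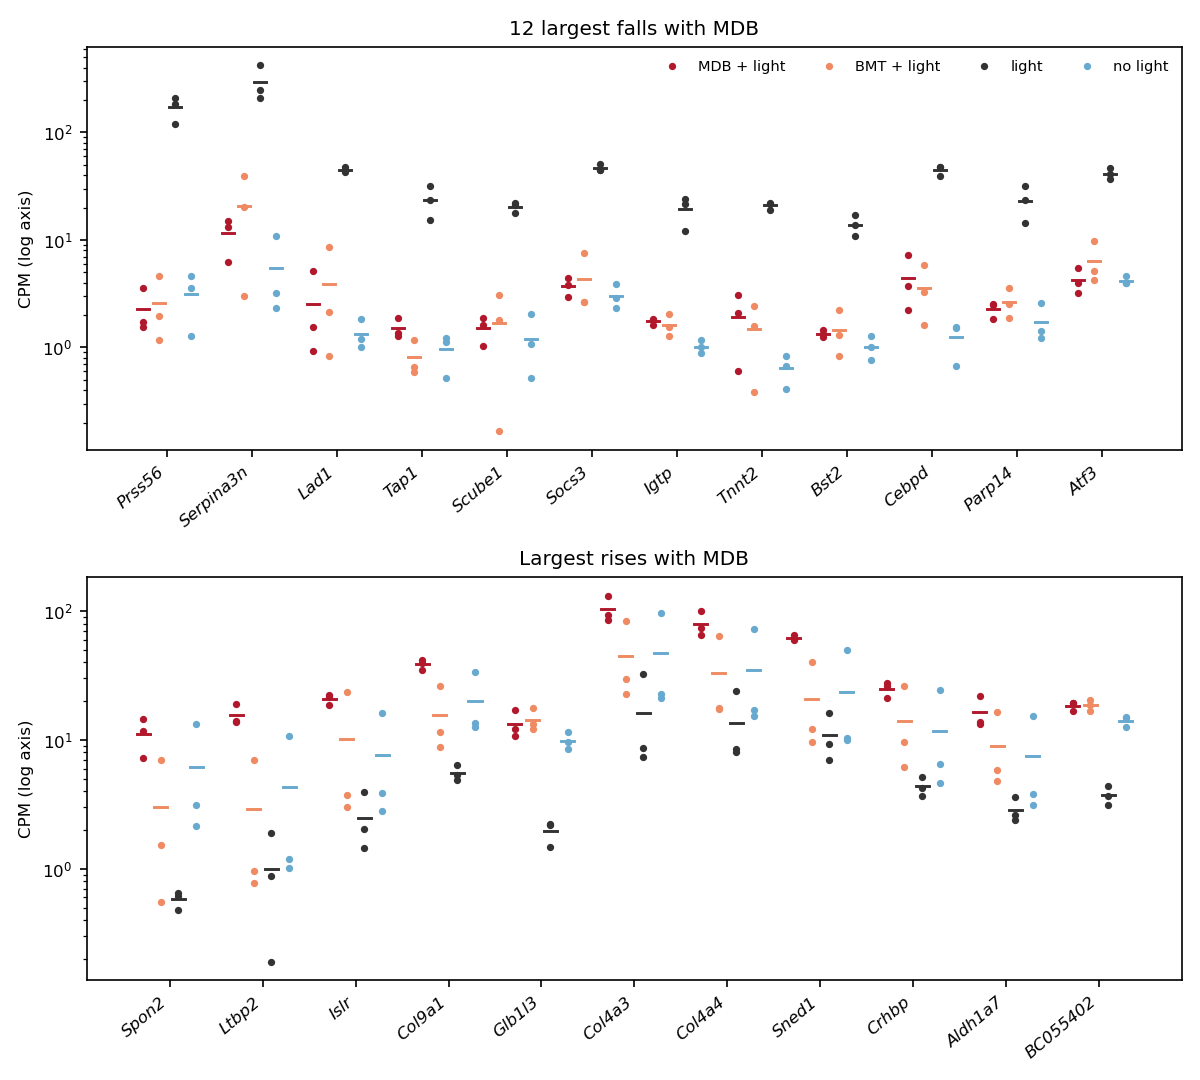
CPM of the 12 largest falls (top) and 11 of the 12 largest rises (bottom) with MDB, on a log axis, in the 3 libraries of each group (points) with their mean (bars). In the falls the light libraries stand above all other groups, while in most rises 1 BMT and 1 no-light library stand near the MDB libraries.

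Genes of the interferon response fell together. Of 32 tested, 24 were lower and 0 higher with MDB, with a median log2 fold change of -2.26, against 0.00 over all genes (26 lower and a median of -2.40 with the lens covariate). Stat2, a transcription factor that carries the type I interferon signal, had 28.3, 30.3 and 28.2 CPM with MDB, against 145, 110.1 and 108 CPM after light alone (log2 fold change -2.07 ± 0.15 (SE), adjusted p = 2.29e-05), and the fold changes of Irf9, the DNA-binding subunit that joins it, and of Parp9 were -2.76 ± 0.21 and -2.74 ± 0.23. Igtp (ENSMUSG00000078853, chromosome 11, 58199556 to 58207591, plus strand), an interferon-inducible GTPase, had 1.62, 1.84 and 1.79 CPM with MDB, against 21.6, 23.8 and 12.1 CPM after light alone (log2 fold change -3.45 ± 0.27 (SE), adjusted p = 2.67e-05). Irgm1, of the same family, had 3.51, 3.38 and 3.98 CPM with MDB, against 34.5, 30.8 and 23.4 CPM after light alone (log2 fold change -3.03 ± 0.21). Bst2 (ENSMUSG00000046718, chromosome 8, 71534264 to 71537437, minus strand), the virus-tethering membrane protein tetherin, had 1.25, 1.33 and 1.45 CPM with MDB, against 17.0, 13.6 and 10.9 CPM after light alone (log2 fold change -3.36 ± 0.33 (SE), adjusted p = 9.41e-05). Light replicate 3, the lens-high one, was the lowest light library for Igtp, Irgm1 and Bst2, and it was above every MDB library in each.

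In the gp130 and JAK-STAT list 12 of 22 genes tested were lower and 0 higher, with a median of -1.31 (11 lower with the lens covariate). Il6st, which encodes gp130 itself, had 126, 132 and 140.2 CPM with MDB, against 351, 347 and 362 CPM after light alone (log2 fold change -1.41 ± 0.13 (SE), adjusted p = 6.19e-05). Socs3 (ENSMUSG00000053113, chromosome 11, 117966079 to 117970047, minus strand), the feedback inhibitor of this pathway, had 4.38, 2.92 and 3.78 CPM with MDB, against 51.2, 44.2 and 44.6 CPM after light alone (log2 fold change -3.65 ± 0.37 (SE), adjusted p = 1.13e-04). Socs3 was at 2.34, 3.86 and 2.86 CPM without light, a range that overlapped the MDB libraries.

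The promoters of 3 falling genes and of Abca4, a rod gene that was higher with MDB, are shown because members of their lists moved together. Abca4 is also a targeted locus of these mice, and the reference sequence was not checked against theirs. The sequences are those of RefSeq in GRCm38.p6, 250 bases before to 50 after an annotated start, 5′ to 3′ on the gene's strand, and capitals mark motif matches found on either strand.
Igtp promoter, chr11:58199306-58199605, plus strand: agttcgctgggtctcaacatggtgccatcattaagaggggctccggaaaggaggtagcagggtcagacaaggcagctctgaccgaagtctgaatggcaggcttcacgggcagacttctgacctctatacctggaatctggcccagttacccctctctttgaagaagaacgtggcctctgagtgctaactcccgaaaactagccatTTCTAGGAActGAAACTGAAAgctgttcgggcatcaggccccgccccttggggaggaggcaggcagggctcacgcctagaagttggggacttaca
Bst2 promoter, chr8:71537423-71537722, minus strand: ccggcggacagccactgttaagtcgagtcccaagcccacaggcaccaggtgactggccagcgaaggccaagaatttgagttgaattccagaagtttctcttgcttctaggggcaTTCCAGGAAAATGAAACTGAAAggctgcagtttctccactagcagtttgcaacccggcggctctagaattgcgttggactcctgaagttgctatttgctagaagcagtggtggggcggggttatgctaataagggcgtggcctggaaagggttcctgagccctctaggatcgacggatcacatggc
Socs3 promoter, chr11:117969317-117969616, minus strand: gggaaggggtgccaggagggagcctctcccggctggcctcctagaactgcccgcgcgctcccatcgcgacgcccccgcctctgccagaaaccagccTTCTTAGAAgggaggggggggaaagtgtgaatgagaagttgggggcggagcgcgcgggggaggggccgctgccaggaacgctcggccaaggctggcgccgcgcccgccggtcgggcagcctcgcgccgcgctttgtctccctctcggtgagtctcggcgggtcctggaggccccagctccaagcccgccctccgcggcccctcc
Abca4 promoter, chr3:122044210-122044509, plus strand: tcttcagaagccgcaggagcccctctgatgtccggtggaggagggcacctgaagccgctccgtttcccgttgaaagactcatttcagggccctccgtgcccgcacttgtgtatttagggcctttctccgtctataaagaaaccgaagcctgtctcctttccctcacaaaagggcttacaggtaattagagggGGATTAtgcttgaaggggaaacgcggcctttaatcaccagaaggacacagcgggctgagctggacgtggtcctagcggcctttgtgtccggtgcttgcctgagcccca
The motifs searched were GAS, the STAT element (TTCNNNGAA), ISRE, the interferon element (TTTC, any 2 bases, TTTC), an AP-1 element (TGANTCA), a kappaB element (GGG, any 2 bases, TTTCC) and the photoreceptor homeobox element (TAATCC). Igtp held a GAS match 45 bases upstream of the start and an ISRE match 34 bases upstream. Bst2 held a GAS match 136 bases upstream that overlapped an ISRE match beginning at 130 bases, which overlapped another at 124 bases. Socs3 held a GAS match 154 bases upstream. Abca4 held the homeobox element, as its reverse complement, 58 bases upstream. Among 32851 promoters of the same length, 8.30% held a GAS match, 3.44% an ISRE match, 7.81% an AP-1 match, 1.63% a kappaB match and 7.06% the homeobox element. These 4 promoters were picked after their values and matches were seen. Matches were not counted over gene lists, because only 71.1% of the genes tested had a promoter in the table.

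Antigen presentation by MHC class I followed the same direction, with 10 of 19 genes lower, 0 higher and a median of -0.97 (11 lower with the lens covariate). Nlrc5, the transactivator of class I genes, had 0.461, 0.769 and 0.630 CPM with MDB, against 20.9, 16.5 and 9.11 CPM after light alone (log2 fold change -4.64 ± 0.58 (SE), adjusted p = 4.17e-04). Tap1 (ENSMUSG00000037321, chromosome 17, 34187553 to 34197225, plus strand), a subunit of the transporter that loads peptides, had 1.89, 1.28 and 1.36 CPM with MDB, against 31.4, 23.5 and 15.3 CPM after light alone (log2 fold change -3.95 ± 0.36 (SE), adjusted p = 6.34e-05). Psme2, a proteasome activator subunit, had 16.1, 17.0 and 17.3 CPM with MDB, against 28.8, 27.5 and 27.8 CPM after light alone (log2 fold change -0.74 ± 0.09), a small change with tight libraries. H2-D1, a class I heavy chain, had 27.6, 33.8 and 34.8 CPM with MDB, against 160.1, 146 and 136 CPM after light alone (log2 fold change -2.20 ± 0.15), but class I heavy chains are near-identical in places and the counting could have split their reads.

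Gliosis genes were lower in 14 of 22 tested and higher in 0, with a median of -1.65 (18 lower and a median of -2.49 with the lens covariate). Gfap, the intermediate filament of reactive Müller glia and astrocytes, had 28.6, 41.9 and 52.9 CPM with MDB, against 308, 339.8 and 261 CPM after light alone (log2 fold change -2.88 ± 0.40 (SE), adjusted p = 9.08e-04). Nes, the intermediate filament nestin, had 4.66, 3.84 and 4.17 CPM with MDB, against 16.9, 17.4 and 19.6 CPM after light alone (log2 fold change -2.09 ± 0.26). Lcn2, an iron-siderophore binding protein of the acute phase, had 3.23, 4.36 and 3.78 CPM with MDB, against 20.9, 23.1 and 16.7 CPM after light alone (log2 fold change -2.42 ± 0.32). Steap4, a metalloreductase, had 0.692, 0.564 and 1.26 CPM with MDB, against 16.0, 12.8 and 7.67 CPM after light alone (log2 fold change -3.85 ± 0.50). Ednrb, the endothelin B receptor, had 5.54, 6.66 and 6.30 CPM with MDB, against 39.5, 29.7 and 27.8 CPM after light alone (log2 fold change -2.39 ± 0.27). Its ligand gene Edn2, induced in stressed photoreceptors, differed widely among the mixture libraries, with 0.969, 3.69 and 10.2 CPM with MDB, against 38.0, 47.8 and 35.0 CPM after light alone (log2 fold change -3.03 ± 0.64 (SE), adjusted p = 0.0112). The call of Edn2 was lost without MDB replicate 2 (adjusted p 0.0579). The call of Edn2 was lost in the lens-high libraries alone (adjusted p 0.167).

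Homeostatic genes of Müller glia showed no common direction, with 5 of 20 higher, 1 lower and a median of 0.14, and 3 higher and 3 lower with the lens covariate. Glul (ENSMUSG00000026473, chromosome 1, 153899944 to 153909723, plus strand), the glutamine synthetase that clears glutamate, had the largest rise of those called. It had 1377, 1323 and 1305 CPM with MDB, against 313, 363 and 369.7 CPM after light alone (log2 fold change 1.94 ± 0.13 (SE), adjusted p = 1.61e-05), and 1129, 1486 and 1206 CPM without light. With the lens covariate its log2 fold change was 1.73. Abca8a, a lipid transporter, had 149.5, 130.3 and 166 CPM with MDB, against 69.9, 92.1 and 61.5 CPM after light alone (log2 fold change 0.99 ± 0.14). Apoe, the lipid carrier of glia, had 354, 313 and 329 CPM with MDB, against 171, 176 and 210.3 CPM after light alone, with a log2 fold change of 0.84 ± 0.19, and 0.47 with the covariate. Rlbp1, which binds 11-cis-retinoids, and Car14, a carbonic anhydrase, had log2 fold changes of 0.37 ± 0.09 and 0.68 ± 0.19. Slc1a3, the glial glutamate transporter, was the 1 member that fell, with 108, 99.2 and 115 CPM with MDB, against 177, 159.8 and 133 CPM after light alone (log2 fold change -0.55 ± 0.13). The call of Apoe was lost without MDB replicates 1 or 3 or light replicates 1 or 2 (adjusted p 0.0505 to 0.0819), that of Rlbp1 was lost without MDB replicates 1 or 2 or light replicates 1 or 2 (adjusted p 0.0979 to 0.115), that of Car14 was lost without MDB replicates 1 or 2 or light replicates 1 or 2 (adjusted p 0.144 to 0.170) and that of Slc1a3 was lost without MDB replicates 1 or 2 or light replicates 1 or 2 (adjusted p 0.0722 to 0.109). The calls of Rlbp1 and Car14 were lost with the lens covariate (adjusted p 0.0737 to 0.144). The calls of Rlbp1, Car14 and Slc1a3 were lost in the lens-high libraries alone (adjusted p 0.223 to 0.607). The calls of Car14 and Slc1a3 were lost in limma on the authors' TMM-scaled FPKM (adjusted p 0.0640 to 0.0886). Those FPKM are per transcript, and here and below the transcript with the highest mean stands for its gene. The call of Car14 was lost in a fit of the MDB and light libraries only (adjusted p 0.0743).

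Photoreceptor transcripts were higher with MDB. In the rod list 26 of 36 genes were higher and 0 lower, with a median of 0.63 (28 higher and a median of 0.72 with the lens covariate). Nr2e3, which represses cone genes in rods, had 467, 509 and 546 CPM with MDB, against 219, 200.2 and 256 CPM after light alone (log2 fold change 1.17 ± 0.13 (SE), adjusted p = 2.04e-04). Nrl, the factor that sets rod fate, had 2018, 2425 and 2325 CPM with MDB, against 1065, 999 and 1309.8 CPM after light alone (log2 fold change 1.00 ± 0.16). Pdc had a log2 fold change of 0.98 ± 0.14 and Abca4 (ENSMUSG00000028125, chromosome 3, 122044443 to 122180061, plus strand) one of 0.69 ± 0.12. In each of these genes the groups did not overlap. Rdh8 did not pass the test (log2 fold change -0.11 ± 0.14, adjusted p = 0.723). The call of Abca4 was lost in the lens-high libraries alone (adjusted p 0.0598).

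The cone list split. Of 13 genes 8 were higher and 2 lower, with a median of 0.62. Opn1sw, the short-wave cone opsin, had 493, 634 and 547 CPM with MDB, against 199, 141 and 279.6 CPM after light alone (log2 fold change 1.43 ± 0.23 (SE), adjusted p = 0.00213). Kcnv2, a potassium channel subunit of both photoreceptor types, had 603, 638 and 671 CPM with MDB, against 315, 302 and 339.7 CPM after light alone (log2 fold change 1.00 ± 0.13), and Arr3, cone arrestin, had 137, 169 and 161 CPM with MDB, against 92.4, 91.8 and 109 CPM after light alone (log2 fold change 0.67 ± 0.10). The 2 that fell were Gnb3, a beta subunit of the cone G protein that bipolar cells also use, and Pde6c, the cone phosphodiesterase. Gnb3 had 222, 229 and 265 CPM with MDB, against 620.2, 569 and 589.9 CPM after light alone (log2 fold change -1.31 ± 0.10 (SE), adjusted p = 2.12e-05). Pde6c had 91.6, 97.7 and 99.8 CPM with MDB, against 169, 156 and 136 CPM after light alone (log2 fold change -0.67 ± 0.10). Without light Gnb3 was at 215, 220.3 and 248 CPM and Pde6c at 117, 109 and 108 CPM, so for both the light group stood highest. The call of Arr3 was lost in the lens-high libraries alone (adjusted p 0.125).

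Of 18 genes of the photoreceptor ribbon synapse, 3 were higher (16.7%) and 1 lower (5.56%), with a median of 0.13 (7 higher with the lens covariate). Over all genes 3.7% were higher and 5.93% lower, so the 1 lower gene is near the share over all genes. Cabp4, a calcium-binding regulator of the synaptic calcium channel, had 89.9, 90.2 and 105 CPM with MDB, against 65.9, 56.8 and 65.8 CPM after light alone (log2 fold change 0.60 ± 0.11). The scaffold gene Rims2 and Dmd, dystrophin, had log2 fold changes of 0.40 ± 0.09 and 0.50 ± 0.14. Ctbp2, whose product includes the ribbon protein RIBEYE, fell to 189, 194 and 216 CPM with MDB, against 265, 255 and 275 CPM after light alone (log2 fold change -0.41 ± 0.09). The summed gene does not separate the RIBEYE transcript from the corepressor transcript. The call of Rims2 was lost without MDB replicates 2 or 3 or light replicate 2 (adjusted p 0.0622 to 0.0714), that of Dmd was lost without MDB replicates 1, 2 or 3 or light replicates 1 or 2 (adjusted p 0.0519 to 0.159) and that of Ctbp2 was lost without MDB replicates 1 or 2 or light replicates 1 or 3 (adjusted p 0.0545 to 0.0742). The calls of Cabp4, Rims2, Dmd and Ctbp2 were lost in the lens-high libraries alone (adjusted p 0.0852 to 0.307). The calls of Dmd and Ctbp2 were lost in limma on the authors' TMM-scaled FPKM (adjusted p 0.0931 to 0.111).

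Of the AP-1 and immediate early genes, 13 of 29 tested were lower and 0 higher, with a median of -0.82 (14 lower with the lens covariate). Gadd45b, a stress sensor, had 3.18, 2.92 and 4.56 CPM with MDB, against 29.9, 27.7 and 27.4 CPM after light alone (log2 fold change -2.99 ± 0.36 (SE), adjusted p = 3.38e-04). Nr4a1, an orphan nuclear receptor, had 14.2, 11.5 and 14.6 CPM with MDB, against 46.1, 48.5 and 36.4 CPM after light alone (log2 fold change -1.70 ± 0.17), and Zfp36, which destabilises cytokine mRNAs, had 1.75, 1.23 and 2.57 CPM with MDB, against 9.17, 6.75 and 7.67 CPM after light alone (log2 fold change -2.08 ± 0.30). Of the NF-kappaB list, 6 of 14 were lower and 1 higher. Bcl3, a nuclear cofactor of NF-kappaB, had 0.0461, 0.307 and 0.679 CPM with MDB, against 11.4, 9.64 and 8.34 CPM after light alone (log2 fold change -4.82 ± 0.68 (SE), adjusted p = 9.79e-04), and the kinase gene Map3k8 had a log2 fold change of -3.41 ± 0.38. Rela, the p65 subunit, had 16.9, 12.8 and 17.4 CPM with MDB, against 29.5, 24.7 and 26.0 CPM after light alone (log2 fold change -0.77 ± 0.13). Tnfaip3, which encodes the pathway's inhibitor A20, was the 1 gene that rose, with 311, 342 and 376 CPM with MDB, against 149, 157 and 172 CPM after light alone (log2 fold change 1.11 ± 0.13 (SE), adjusted p = 2.60e-04). The calls of Zfp36 and Rela were lost in the lens-high libraries alone (adjusted p 0.0598 to 0.125).

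In the cell death and p53 list, 7 of 24 genes were lower and 1 was higher. Ripk1, a kinase of necroptosis and survival signalling, had 6.18, 6.51 and 7.51 CPM with MDB, against 22.4, 21.5 and 20.6 CPM after light alone (log2 fold change -1.67 ± 0.14). Tnfrsf12a, the TWEAK receptor, had 4.29, 3.95 and 4.22 CPM with MDB, against 24.7, 22.3 and 18.6 CPM after light alone (log2 fold change -2.40 ± 0.24). Cdkn1a, the cell-cycle inhibitor p21, and Mcl1, an anti-apoptotic BCL2 protein, had log2 fold changes of -1.38 ± 0.21 and -0.51 ± 0.07. The call of Cdkn1a was lost in the lens-high libraries alone (adjusted p 0.0739).

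Of 12 chemokine and adhesion genes tested, 5 were lower and 0 higher. Ccl2, the monocyte attractant, was low in every library, with 0.231, 0.154 and 0.145 CPM with MDB, against 4.04, 2.21 and 1.75 CPM after light alone (log2 fold change -3.87 ± 0.57 (SE), adjusted p = 0.00127). Ccl12, a related chemokine, had 0.138, 0.154 and 0.533 CPM with MDB, against 2.85, 3.81 and 3.24 CPM after light alone (log2 fold change -3.56 ± 0.57). Vcam1, an adhesion receptor, had 7.94, 6.82 and 7.80 CPM with MDB, against 24.7, 19.8 and 18.4 CPM after light alone (log2 fold change -1.48 ± 0.22), and the chemokine gene Cxcl16 and the macrophage growth factor gene Csf1 had log2 fold changes of -0.71 ± 0.15 and -1.64 ± 0.39. Among markers of microglia and macrophages, 2 of 20 were lower and 2 higher, small counts beside the same shares over all genes. Cd68, a lysosomal protein, and Cd14, a co-receptor for bacterial lipopolysaccharide, had log2 fold changes of -1.86 ± 0.30 and -1.51 ± 0.26. P2ry12, the purinergic receptor of resting microglia, had 3.60, 2.92 and 2.52 CPM with MDB, against 0.746, 0.877 and 0.875 CPM after light alone (log2 fold change 1.85 ± 0.22 (SE), adjusted p = 2.72e-04). The call of Cxcl16 was lost without MDB replicate 2 or light replicate 2 (adjusted p 0.0509 to 0.0545) and that of Csf1 was lost without MDB replicates 1, 2 or 3 or light replicates 1 or 2 (adjusted p 0.0585 to 0.0856). The calls of Ccl2, Ccl12, Cxcl16, Cd68, Cd14 and P2ry12 were lost in the lens-high libraries alone (adjusted p 0.0712 to 0.262). The call of Cxcl16 was lost in limma on the authors' TMM-scaled FPKM (adjusted p 0.211).

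In the complement list the count moved with the lens covariate, with 2 of 12 genes lower without it and 6 of 12 with it, and 0 higher under both. Over all genes 5.93% were lower without it and 6.07% with it. The 2 were Cfi, which cleaves C3b, with 1.25, 0.512 and 0.582 CPM with MDB, against 4.26, 2.86 and 3.19 CPM after light alone, and C3ar1, the C3a receptor, with 0.554, 0.922 and 0.485 CPM with MDB, against 2.59, 2.02 and 2.78 CPM after light alone. C3 had 2.54, 1.95 and 2.13 CPM with MDB, against 4.26, 4.50 and 4.27 CPM after light alone, with a log2 fold change of -0.97 ± 0.42 and an adjusted p of 0.194, and a log2 fold change of -1.74 with an adjusted p of 0.00554 under the covariate. In a fit of the MDB and light libraries only C3 passed (adjusted p = 0.0116). The calls of Cfi and C3ar1 were lost in the lens-high libraries alone (adjusted p 0.125 to 0.165).

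Of 18 metallothionein and NRF2 genes 5 were lower and 0 higher. Mt2, a metal-binding protein, had 37.7, 41.1 and 30.5 CPM with MDB, against 202, 189 and 149 CPM after light alone (log2 fold change -2.31 ± 0.28 (SE), adjusted p = 3.75e-04), and Mt1 had a log2 fold change of -1.55 ± 0.19. Txnrd1, thioredoxin reductase, had 41.4, 44.6 and 42.8 CPM with MDB, against 62.4, 62.8 and 62.7 CPM after light alone (log2 fold change -0.54 ± 0.05). The zinc importer gene Slc39a14 had a log2 fold change of -0.36 ± 0.08, and Srxn1, sulfiredoxin, one of -0.30 ± 0.08. Of 24 glycolysis and hypoxia genes 8 were higher and 1 lower, and 4 higher and 1 lower with the lens covariate. Slc16a1, a lactate transporter, had 243, 263 and 219 CPM with MDB, against 125, 124 and 173 CPM after light alone (log2 fold change 0.78 ± 0.15). Hk1, hexokinase 1, fell to 609.8, 703 and 814 CPM with MDB, against 1207, 1173 and 1237 CPM after light alone (log2 fold change -0.77 ± 0.12 (SE), adjusted p = 0.00171). Of 15 heat-shock genes 1 was higher and 1 lower, which is near the shares over all genes (3.7% higher and 5.93% lower). Dnajb1, an HSP40 co-chaperone, had a log2 fold change of -0.59 ± 0.07, and Hspa1b one of 0.90 ± 0.19, but Hspa1b and its copy Hspa1a are near-identical and may share reads. None of the 13 mitochondrially encoded genes passed the test. The call of Slc39a14 was lost without MDB replicates 2 or 3 (adjusted p 0.0521 to 0.0601) and that of Srxn1 was lost without MDB replicates 2 or 3 or light replicates 1 or 2 (adjusted p 0.0594 to 0.148). The calls of Slc39a14 and Srxn1 were lost with the lens covariate (adjusted p 0.0628 each). The calls of Hk1, Slc16a1, Slc39a14, Srxn1 and Hspa1b were lost in the lens-high libraries alone (adjusted p 0.0557 to 0.466). The calls of Slc39a14 and Srxn1 were lost in limma on the authors' TMM-scaled FPKM (adjusted p 0.0644 to 0.0737). The call of Srxn1 was lost in a fit of the MDB and light libraries only (adjusted p 0.0607).

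**Figure D2:**
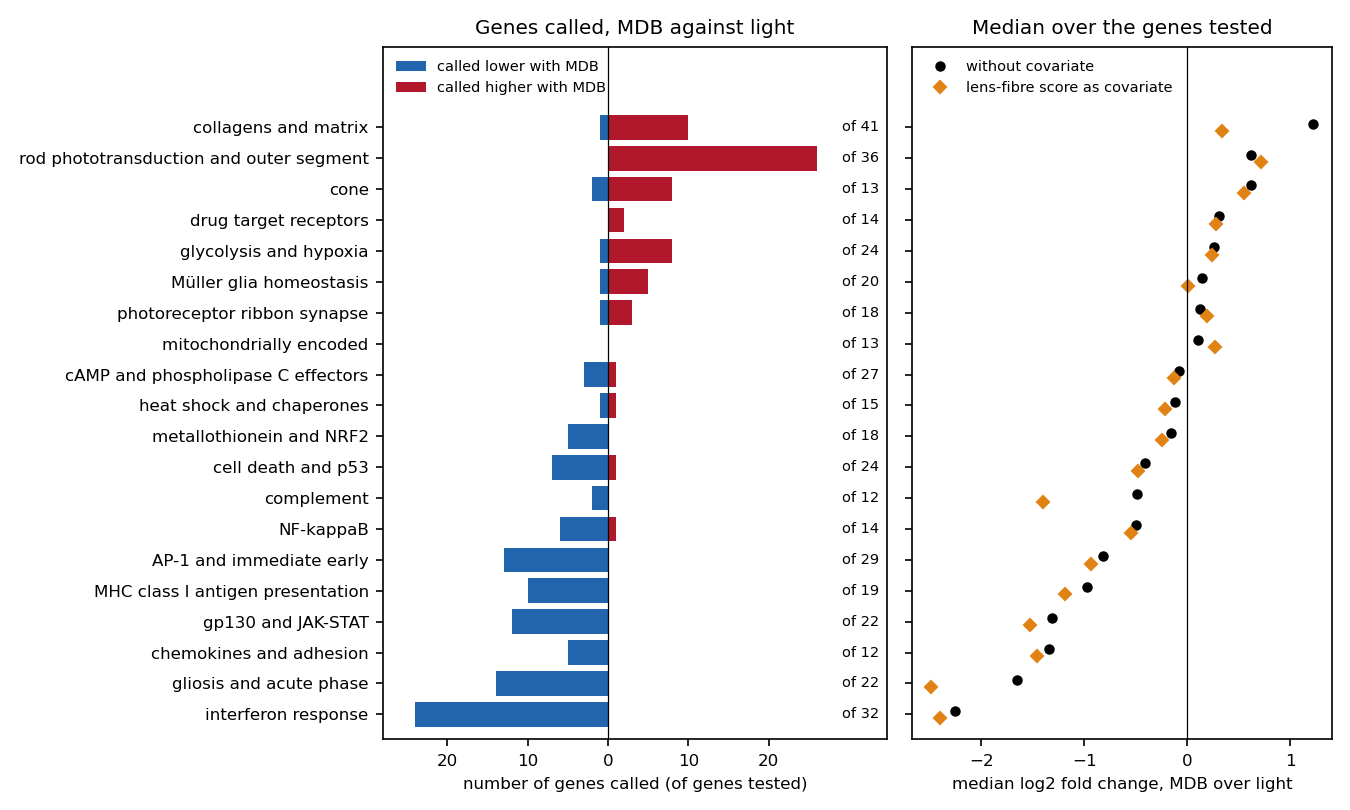
Numbers of genes called lower (left bars) and higher (right bars) with MDB than after light in 20 gene lists, with the number tested, and the median log2 fold change of each list without and with the lens-fibre score as a covariate. Rod and cone lists lie above 0 and immune, gliosis and stress lists below 0 under both, while the collagen list has medians of 1.22 without and 0.34 with it.

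The receptors that the drugs act on were transcribed at different levels. Per length, in the FPKM values (fragments scaled by transcript length and library size) deposited by the authors, Drd4, a D2-like dopamine receptor of photoreceptors, was highest, with 64.3 ± 19.6 FPKM with MDB and 40.3 ± 8.08 FPKM after light alone (SD, n = 3 each). Adrb1, the target of metoprolol, had 6.38 ± 0.726 FPKM with MDB and 4.35 ± 0.513 FPKM after light alone. Drd2, a target of bromocriptine, had 5.81 ± 0.878 FPKM with MDB and 6.84 ± 0.865 FPKM after light alone. The alpha-1 receptors, the targets of doxazosin, were below Drd4, Adrb1 and Drd2, while Drd3, a further D2-like receptor, was listed at 0 in every MDB and light library. Adra1d had 1.14 ± 0.176 FPKM with MDB and 1.28 ± 0.400 FPKM after light alone, Adra1b 0.729 ± 0.226 FPKM with MDB and 0.720 ± 0.187 FPKM after light alone, and Adra1a 0.291 ± 0.0823 FPKM with MDB and 0.398 ± 0.0276 FPKM after light alone.

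Between the groups, 2 of 14 receptor and dopamine genes tested (14.3%) were higher with MDB and 0 lower, against 3.7% and 5.93% of all genes. In counts, Adrb1 had 14.8, 12.9 and 16.1 CPM with MDB, against 9.88, 7.85 and 9.83 CPM after light alone (log2 fold change 0.67 ± 0.13 (SE), adjusted p = 0.00739), and Adra2c, an alpha-2 receptor that none of the 3 drugs is given for, had 12.1, 7.74 and 6.50 CPM with MDB, against 2.28, 3.55 and 4.79 CPM after light alone (log2 fold change 1.32 ± 0.29 (SE), adjusted p = 0.0137). Drd4 had 80.5, 53.8 and 102 CPM with MDB, against 53.6, 45.1 and 37.4 CPM after light alone, and its adjusted p of 0.0517 missed the threshold (log2 fold change 0.80 ± 0.23). MDB replicate 2 was level with light replicate 1 for that gene. Drd2 (log2 fold change -0.12 ± 0.15), Adra1a (-0.33 ± 0.37), Adra1b (0.22 ± 0.30) and Adra1d (-0.04 ± 0.29) did not pass the test. At their low counts the errors of the alpha-1 receptors allow changes of moderate size, and that of Drd2 allows smaller ones. Of 27 cyclic AMP and phospholipase C effectors 1 was higher and 3 lower, small counts beside the 3.7% of all genes called higher and 5.93% called lower. Adcy6 and Adcy1, adenylate cyclases, went opposite ways, with log2 fold changes of 0.63 ± 0.10 and -0.46 ± 0.08. Crem, a cyclic AMP-responsive factor, had 14.0, 13.8 and 15.4 CPM with MDB, against 20.7, 29.4 and 24.7 CPM after light alone (log2 fold change -0.79 ± 0.14), and Plcb4, a phospholipase C, had 119.9, 117 and 119 CPM with MDB, against 154, 156 and 140.1 CPM after light alone (log2 fold change -0.34 ± 0.05). The call of Adra2c was lost without MDB replicate 1 or light replicates 1 or 2 (adjusted p 0.0544 to 0.0589). Without MDB replicate 2 the adjusted p of Drd4 was 0.0155, and it was 0.0495 with RLE size factors, 0.0445 without a filter on low counts and 0.00456 with DESeq2. In the authors' TMM-scaled FPKM the most abundant transcript of Crem had a log2 fold change of -0.10, and that of Plcb4 one of -0.17. These are values of single transcripts, whereas the counts sum all transcripts of a gene. The calls of Adrb1, Adra2c, Adcy6, Adcy1 and Plcb4 were lost in the lens-high libraries alone (adjusted p 0.0527 to 0.345). The calls of Crem and Plcb4 were lost in limma on the authors' TMM-scaled FPKM (adjusted p 0.539 to 0.953).

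Under the conditions used for the falls, the largest rises were mostly matrix genes, and they moved with the lens-fibre score. Spon2, a secreted matrix protein, had 14.5, 7.23 and 11.8 CPM with MDB, against 0.483, 0.648 and 0.617 CPM after light alone (log2 fold change 4.25 ± 0.93 (SE), adjusted p = 0.0133). Col4a3 (ENSMUSG00000079465, chromosome 1, 82586921 to 82722059, plus strand), a basement-membrane collagen chain, had 132, 84.8 and 92.6 CPM with MDB, against 8.73, 7.43 and 32.8 CPM after light alone (log2 fold change 2.68 ± 0.75 (SE), adjusted p = 0.0459). Its lens-high BMT library had 83.4 CPM and the other BMT libraries at most 29.5 CPM, and its lens-high no-light library had 97.2 CPM and the other no-light libraries at most 22.6 CPM. Sned1, a matrix gene, had 65.8, 60.1 and 61.2 CPM with MDB, against 9.31, 6.98 and 16.3 CPM after light alone, and 12.2, 40.5 and 9.72 CPM with BMT, with a log2 fold change of 2.53 ± 0.68. The log2 fold change was 4.01 ± 1.11 for Ltbp2, a microfibril protein of the ciliary zonule, 3.09 ± 0.85 for Islr, a marker of stromal cells, and 2.82 ± 0.45 for Col9a1, a collagen of cartilage and vitreous. It was 2.57 ± 0.71 for Col4a4, the partner chain of Col4a3, 2.52 ± 0.63 for Crhbp, which binds corticotropin-releasing hormone, and 2.51 ± 0.63 for Aldh1a7, an aldehyde dehydrogenase. In 10 of the 12 largest rises, these 9 among them, the lens-high library was 2.58 to 8.07 times the mean of the others with BMT, and 2.57 to 9.73 times without light. The MDB mean was 0.841 to 1.45 times the lens-high no-light library. Leaving out 1 library ended the call of 5 to 8 of the 9, with 5 lost without light replicate 3 and 8 lost without light replicate 1 or light replicate 2, while all log2 fold changes stayed at 2.23 or above. The calls of Islr and Col4a4 were lost in limma on the authors' TMM-scaled FPKM (adjusted p 0.0515 to 0.0833).

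With the score as a covariate the median log2 fold change of the 12 rises was 1.63, against 2.62 without it. In the whole matrix list 10 of 41 genes were higher and 1 lower under both fits, and the list's median was 1.22 without and 0.34 with the covariate. Col2a1, a fibrillar collagen whose groups did not overlap, had a log2 fold change of 1.22 ± 0.22, and Fn1, fibronectin, was the gene that fell, with 32.0, 27.4 and 31.0 CPM with MDB, against 48.9, 59.9 and 44.8 CPM after light alone (log2 fold change -0.76 ± 0.17). The lens-fibre genes themselves were not called, 0 of 26, although their median log2 fold change was 2.56, and they varied widely within the other groups. Foxe3, a transcription factor of lens epithelium, was called, with 5.21, 1.90 and 5.38 CPM with MDB, against 0, 0 and 0.154 CPM after light alone (adjusted p = 0.0253), and 0, 1.83 and 0.143 CPM without light. Foxe3 was listed at 0 in 2 light libraries, so its fold is not given. The call of Foxe3 was lost without MDB replicates 1 or 3 or light replicates 1, 2 or 3 (adjusted p 0.0526 to 0.110) and that of Fn1 was lost without MDB replicate 2 or light replicate 2 (adjusted p 0.0618 to 0.0653). The most abundant transcript of Col2a1 had a log2 fold change of 0.49 in the authors' TMM-scaled FPKM. The calls of Col2a1, Fn1 and Foxe3 were lost in the lens-high libraries alone (adjusted p 0.0661 to 0.0976). The call of Col2a1 was lost in limma on the authors' TMM-scaled FPKM (adjusted p 0.397). How far lens or neighbouring tissue enters the matrix rises was not tested.

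**Figure D3:**
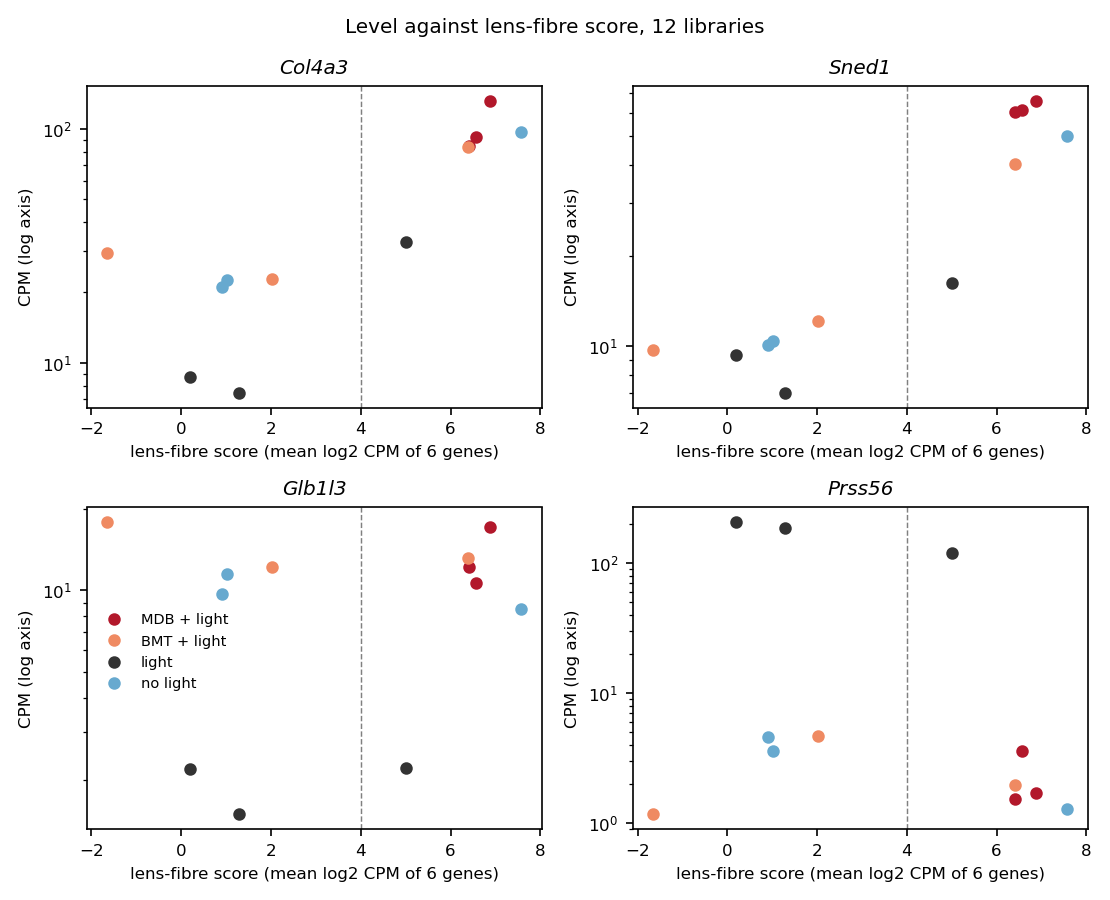
CPM (log axis) of Col4a3, Sned1, Glb1l3 and Prss56 against the lens-fibre score in the 12 libraries of the mixture experiment, with the lens-high limit of 4 dashed. Col4a3 and Sned1 are high in the lens-high MDB, BMT and no-light libraries, whereas Glb1l3 and Prss56 separate the 3 light libraries from the other 9 at any score.

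The other 2 of the 12 rises did not follow the score. Glb1l3 (ENSMUSG00000031966, chromosome 9, 26817953 to 26860823, minus strand), related in sequence to beta-galactosidase, had 17.1, 12.2 and 10.7 CPM with MDB, against 2.19, 1.49 and 2.21 CPM after light alone, and 12.2, 13.2 and 17.8 CPM with BMT and 11.5, 8.50 and 9.66 CPM without light (log2 fold change 2.77 ± 0.24 (SE), adjusted p = 4.86e-05). BC055402, named by its cDNA clone alone, had 19.2, 19.2 and 16.8 CPM with MDB, against 3.69, 4.38 and 3.14 CPM after light alone (log2 fold change 2.29 ± 0.14 (SE), adjusted p = 9.14e-06). With the lens covariate their log2 fold changes were 2.94 and 2.44. Among genes whose groups did not overlap and whose mean log2 CPM reached 1, the largest rises of that fit that had passed without it too were Glb1l3, Spon2, BC055402, Hist1h1e, Ltbp2, 3010001F23Rik, Col9a1, Gm14091, Dleu7 and P2ry12. Hist1h1e, a linker histone, had 3.18, 4.66 and 4.12 CPM with MDB, against 0.922, 0.610 and 1.13 CPM after light alone (log2 fold change 2.17 ± 0.33), and Dleu7 had 5.17, 5.89 and 4.99 CPM with MDB, against 1.62, 1.56 and 1.90 CPM after light alone (log2 fold change 1.66 ± 0.19). Of the 1542 genes, 1228 were called with the covariate too, 480 higher and 748 lower, with 0 in opposite directions. Of the 361 genes at least 2-fold lower 328 remained called, and of the 121 at least 2-fold higher 97. The calls of Hist1h1e and Dleu7 were lost in the lens-high libraries alone (adjusted p 0.0546 to 0.0810).

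Among markers of other cell types, those of endothelium were lower in 2 of 10, a small count beside the 5.93% of all genes called lower. Kdr, the VEGF receptor 2, had 86.5, 75.2 and 96.1 CPM with MDB, against 201, 181 and 160.1 CPM after light alone (log2 fold change -1.07 ± 0.14 (SE), adjusted p = 5.18e-04), and Vwf, von Willebrand factor, had 6.78, 4.41 and 4.85 CPM with MDB, against 11.1, 10.3 and 12.6 CPM after light alone (log2 fold change -1.08 ± 0.28). The pericyte marker Rgs5 had 47.8, 44.0 and 38.4 CPM with MDB, against 65.9, 77.2 and 48.6 CPM after light alone, with an adjusted p of 0.0321, and 0.0703 with the lens covariate. Of bipolar markers, Prkca rose (log2 fold change 0.36 ± 0.08) and Grik1 fell (-0.67 ± 0.12). Of horizontal-cell markers, Onecut2 had 6.92, 8.45 and 6.25 CPM with MDB, against 15.6, 13.4 and 14.1 CPM after light alone (adjusted p = 0.00250), and Sept4 had a log2 fold change of 0.48 ± 0.09. None of 11 amacrine and none of 11 ganglion-cell markers was called. The call of Vwf was lost without MDB replicates 2 or 3 or light replicates 1, 2 or 3 (adjusted p 0.0673 to 0.118), that of Rgs5 was lost without MDB replicates 2 or 3 or light replicates 1 or 2 (adjusted p 0.0889 to 0.136) and that of Prkca was lost without MDB replicate 3 or light replicates 1 or 2 (adjusted p 0.0665 to 0.0765). The calls of Vwf, Rgs5, Prkca, Grik1, Onecut2 and Sept4 were lost in the lens-high libraries alone (adjusted p 0.0780 to 0.651). The call of Rgs5 was lost in limma on the authors' TMM-scaled FPKM (adjusted p 0.0714). The call of Rgs5 was lost in a fit of the MDB and light libraries only (adjusted p 0.0598).

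MDB was next set against no light, in a comparison that shares the MDB libraries with the one above. Of 16007 genes 0 were called (0.0%), with 1642 at an unadjusted p under 0.05, and DESeq2 called 22 and limma voom 0. Prss56 had a log2 fold change of -0.48 ± 0.55, Gfap one of 0.54 ± 0.39, Stat2 one of -0.01 ± 0.15, Glul one of 0.07 ± 0.12 and Nrl one of -0.26 ± 0.15. Other genes, picked with their values known, did not overlap between MDB and no light. Cebpd (1.82 ± 0.52), Lcn2 (1.10 ± 0.34) and Mt1 (0.69 ± 0.19) stood above no light. Pdc (-0.28 ± 0.14) and Pde6c (-0.21 ± 0.10) stood below it. The list medians against no light were 0.40 for interferon genes, 0.71 for gliosis genes and -0.20 for rod genes. Among the no-light libraries only replicate 2 was lens-high, while all MDB libraries were. How far this enters these differences was not tested. The errors do not show that the retinas were alike: the SE of Gfap allows a difference of more than 2-fold.

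Against BMT, which differs from MDB in its alpha-1 blocker, 0 of 16007 genes were called (0.0%), with 3001 at an unadjusted p under 0.05. DESeq2 called 617 and limma voom 0. Prss56 had a log2 difference of -0.20 ± 0.56, Gfap one of -0.45 ± 0.38, Glul one of 0.09 ± 0.12, Stat2 one of -0.16 ± 0.15 and Drd4 one of 1.03 ± 0.23, each MDB over BMT with its SE. Only 1 of the 3 BMT libraries was lens-high.

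Genes that answer to light were also taken from libraries outside this experiment. In the single-drug experiment of the series, with its own 3 light and 3 no-light libraries, 609 genes were raised and 343 lowered at least 2-fold by light among the 24.0% of genes called (11.4% raised and 12.6% lowered, whatever the size). Of the raised genes 598 were tested here, and 346 of them (57.9%) were lower with MDB than after light alone, with 0 higher and a median log2 fold change of -1.21. Of the lowered genes 341 were tested, and 200 (58.7%) were higher, with 0 lower and a median of 0.65. The background shares were 5.93% lower and 3.7% higher. The mean level of the raised genes on the log2(CPM + 1) scale was 2.39, 2.41 and 2.44 with MDB, 2.39, 2.43 and 2.08 with BMT, 3.48, 3.44 and 3.41 after light alone and 2.12, 2.32 and 2.13 without light. For the lowered genes it was 5.14, 5.20 and 5.28 with MDB, 5.21, 5.08 and 5.31 with BMT, 4.59, 4.52 and 4.73 after light alone and 5.18, 5.18 and 5.30 without light. With MDB the raised genes averaged above all 3 no-light libraries, by a margin that is small beside the distance to the light libraries.

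**Figure D4:**
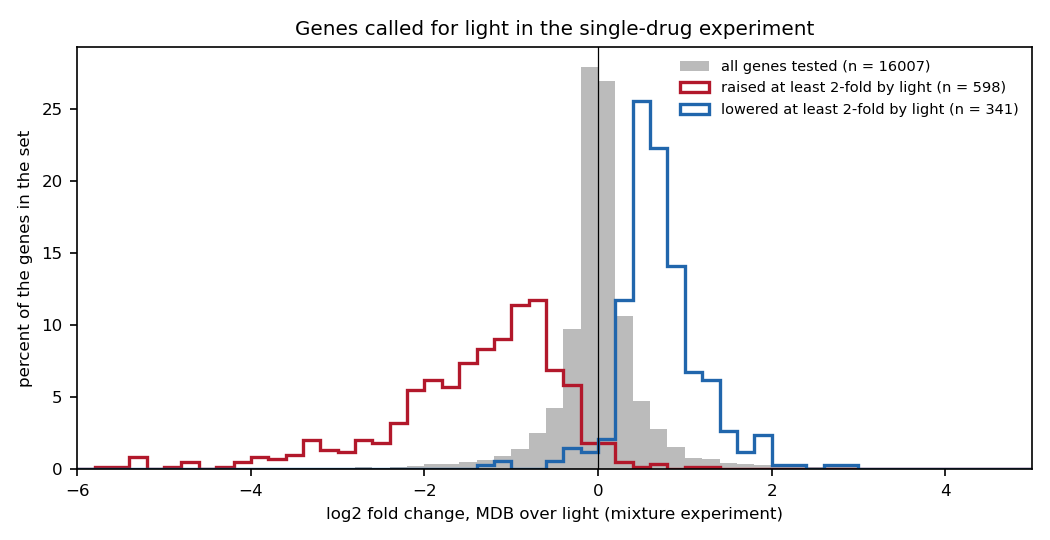
Share of genes by log2 fold change of MDB over light in the mixture experiment, for all genes tested (grey) and for genes raised (red) or lowered (blue) at least 2-fold by light in the single-drug experiment. The raised genes lie mostly below 0, with a median of -1.21, and the lowered genes mostly above 0, with a median of 0.65.

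The components of MDB had each been given alone in the single-drug experiment, against its own light libraries. Among 15868 genes tested in both experiments MDB had 944 falls and 593 rises. Metoprolol alone called 10.3% of genes (4.91% lower and 5.37% higher), and shared 448 of the MDB falls (47.5% of these and 56.6% of its own falls) and 361 of the MDB rises (60.9% and 41.4%). Doxazosin alone called 11.9% of genes (5.06% lower and 6.79% higher), and shared 320 of the MDB falls (33.9% of these and 39.1% of its own falls) and 333 of the MDB rises (56.2% and 30.2%). Bromocriptine alone called 14.4% of genes (7.32% lower and 7.08% higher), and shared 598 of the MDB falls (63.3% of these and 50.5% of its own falls) and 361 of the MDB rises (60.9% and 31.4%). In the opposite direction, 1 MDB fall, that of Frmpd1, was called a rise with doxazosin, and 0 genes were opposite with the others. Igtp had log2 fold changes of -3.45 ± 0.27 with MDB, -3.51 ± 0.42 with metoprolol, -3.07 ± 0.40 with doxazosin and -3.14 ± 0.40 with bromocriptine, and Bst2 and Parp14 were also called in each. Gfap had -2.88 ± 0.40 with MDB, -1.50 ± 0.59 with metoprolol, -0.61 ± 0.57 with doxazosin and -2.20 ± 0.60 with bromocriptine, where MDB and bromocriptine passed the test. Prss56 had -6.22 ± 0.53 with MDB, -5.18 ± 0.99 with metoprolol, -2.53 ± 0.85 with doxazosin and -5.36 ± 0.99 with bromocriptine, and doxazosin alone did not pass (adjusted p = 0.0651).

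The difference between the effect of the mixture and that of each component was tested in a fit of all 30 libraries, added after the data were seen. It called 0 of 16645 genes for each of the 3 drugs, with 1238, 2366 and 1354 genes at an unadjusted p under 0.05 for metoprolol, doxazosin and bromocriptine. For Prss56 the log2 difference was -1.06 ± 1.13 against metoprolol, -3.72 ± 1.10 against doxazosin and -0.88 ± 1.13 against bromocriptine. For Gfap it was -1.40 ± 0.76 against metoprolol, -2.29 ± 0.76 against doxazosin and -0.69 ± 0.76 against bromocriptine, and these errors leave room for sizeable differences. Hk1 had -0.95 ± 0.22 against doxazosin, with an adjusted p of 0.187, the smallest of that comparison. For light over no light Hk1 had 0.76 ± 0.12 in the mixture experiment and 0.06 ± 0.17 in the single-drug experiment. How far the light groups enter the Hk1 difference was not tested. In the single-drug experiment all 3 light and all 3 bromocriptine libraries were lens-high, but 1 of 3 with metoprolol and 1 of 3 with doxazosin, and of the 10 rises that followed the lens-fibre score 0 were called with any component alone. Those of them named above still had positive log2 fold changes with bromocriptine, from 0.42 for Sned1 to 1.84 for Spon2.

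**Figure D5:**
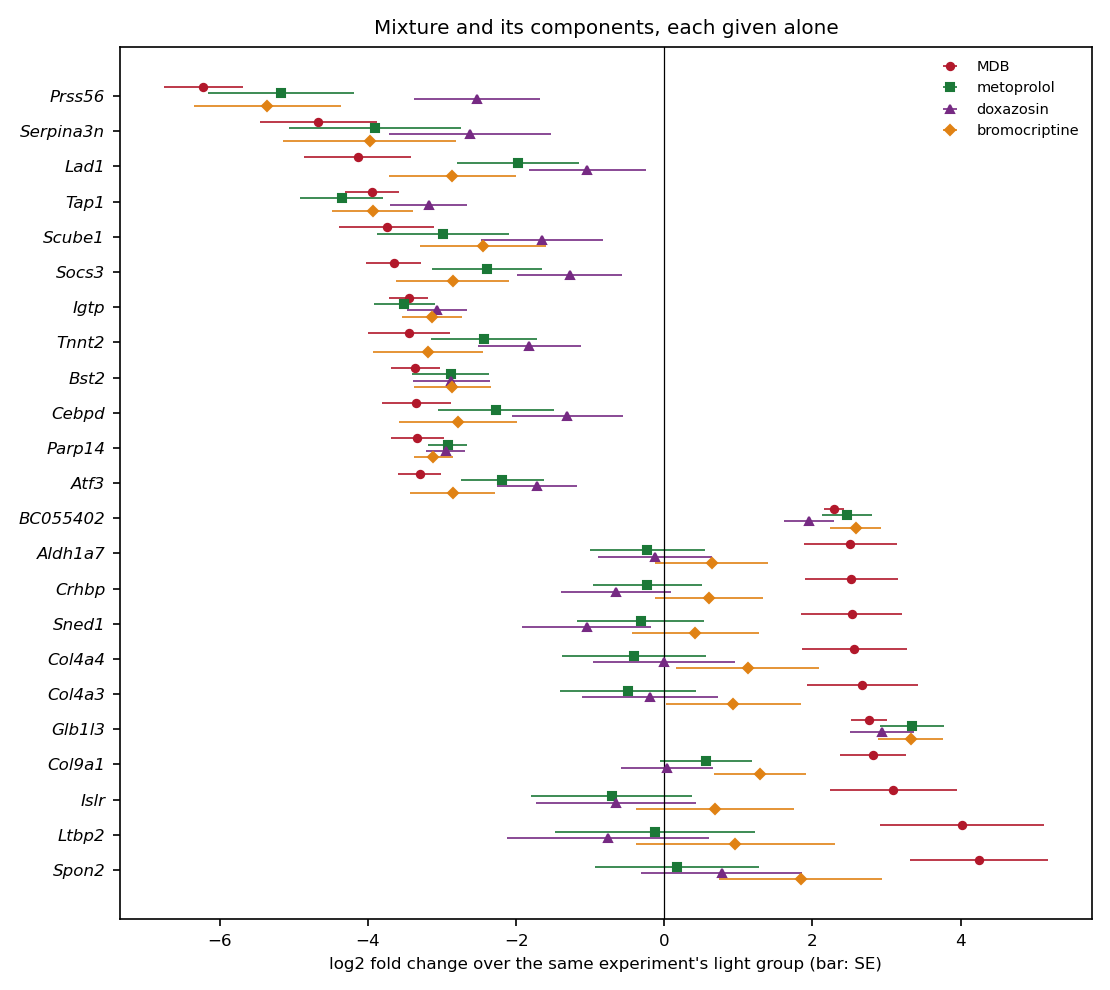
Log2 fold change (point) and SE (bar) of the 12 largest falls and 11 of the 12 largest rises with MDB, for MDB and for metoprolol, doxazosin and bromocriptine alone, each over the light libraries of its own experiment. The falls lie below 0 for all 4 treatments, and of the rises Glb1l3 and BC055402 lie near 2 or above for all 4. The other rises lie between -1.05 and 0.78 for metoprolol and doxazosin, and between 0.42 and 1.84 for bromocriptine.

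The authors' deposited table of changed transcripts holds 521 transcripts of 474 genes, 394 with a negative and 127 with a positive log2 fold change of MDB over light. Its adjusted p is of an F test over all groups, so it marks no single comparison. Of the 474 genes in the authors' deposited table, 396 (83.5%) were called here for MDB against light, against 9.63% of all genes tested. Both results come from the same libraries, so this overlap is no independent check.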

How the data were processed

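Poly(A) RNA of neural retina was sequenced from stranded libraries, per the labels' protocols. The authors trimmed reads with Trimmomatic and named Bowtie2, TopHat2 and eXpress on GRCm38.p3, per the submitters' processing notes, in which versions are not given. The deposited counts are expected counts per transcript, estimated by eXpress and not normalized. The deposited FPKM values of eXpress were used for levels per length, and a table of FPKM that the authors scaled by TMM for an alternative. Of the authors' comparison table the deposited log2 fold changes and p-values were used.

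Expected counts were summed over transcripts per gene and rounded. Genes were filtered with filterByExpr, scaled by TMM and tested two-sided by edgeR 4.0.16 (quasi-likelihood F test, R 4.3.3) in 1 fit of the 12 libraries, with a call meaning a Benjamini-Hochberg adjusted p below 0.05. The SE is the absolute log2 fold change over the square root of F. The scripts were tested on simulated data. Alternatives used DESeq2 1.42.0 and limma 3.58.1, which tested log2(FPKM + 1). The FPKM test was per transcript, and a named gene was represented there by its transcript with the highest mean FPKM. CPM is per 1000000 counts of a library. Depth, given as total counts, limits low genes most.

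Named were the 12 largest rises and falls whose groups did not overlap and whose mean log2 CPM reached 1, the 10 largest rises that also passed with the lens covariate, up to 4 members per list by adjusted p, and targeted, receptor and damage genes. Members, lists and the lens-fibre score were chosen with earlier results of these data known. Genes named because a count was 5 or less were picked with their values known. Some genes that the rules name are not reported here. Replicate numbers were not used to pair the libraries in the main fit.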

Additional observations from a re-analysis of the deposited data

How the results depend on the processing

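The count of 1542 genes for MDB against light was 1027 transcripts from the authors' TMM-scaled FPKM values and 580 genes from the lens-high libraries alone, where 1 light library is assumed to vary like the other groups. Leaving out 1 library gave 919 to 1376 genes, and the other settings 1383 to 2309. DESeq2 called 22 genes and the FPKM values 3 transcripts for MDB against no light, and 617 genes and 2 transcripts for MDB against BMT. The other settings called 0 in both, leaving out 1 library included (0 to 0). With all genes called for light in the single-drug experiment, whatever their size, 38.3% of the raised genes were lower with MDB and 21.3% of the lowered genes were higher. Among named genes, Rdh8 had a log2 fold change of 0.071 with the lens covariate, and Adra1d of 0.16 and Drd2 of 0.070 in the lens-high libraries, each of the opposite sign to the value reported and none called. Leaving out 1 library gave -0.11 to 0.37 for Adra1b and -0.18 to 0.23 for Adra1d. No other named gene changed direction under any setting. In the lens-high libraries 42 of 113 named genes lost their call, and 5 did with the lens covariate and 13 with the FPKM values. The replicate number as a block gave 1566 genes, and same-numbered libraries did not deviate together. With 3 libraries per group this check cannot tell whether same-numbered libraries shared a day or a preparation. The cause of these shifts was not tested. Depth limits genes of a few CPM, such as the alpha-1 receptors and chemokines.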
